A study of Mus musculus with 5 samples.

Results

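The Notch receptors, ligands and target genes were followed through single-cell transcriptomes of the newborn mouse growth plate. The 10 genes were chosen by name as the receptors Notch1, Notch2, Notch3 and Notch4, the ligands Jag1, Dll1 and Dll4, and the targets Hes1, Hey1 and Hey2, out of 29818 genes listed over all libraries. All 10 were found in every library. Cells came from the femoral and tibial growth plate cartilage of 5 C57BL/6J littermates, 1 library per pup, captured with the BD Rhapsody HT Express system, which counts unique molecular identifiers (UMIs). Pups 1 and 2 were labelled wild type (WT, replicates 1 and 2), and pups 3, 4 and 5 were labelled mutant (mutant replicates 1, 2 and 3). The mutant pups carried a conditional knock-in allele of Trpv4, which encodes a calcium-permeable ion channel, with the p.R594H change switched on by Col2a1-Cre. That Cre is driven by the promoter of a cartilage collagen gene, and the paper describes the strategy as a model of the mutation in chondrocytes. The paper also proposes that perichondrial progenitors switch the allele on as they become chondrocytes. The sample labels give an age of postnatal day 5, while the design text and the methods give day 3. The mutated base is not visible in counts per gene, so the genotypes rest on the labels.

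Notch receptors are single-pass membrane proteins that are cut after they bind a Jagged or Delta-like ligand on a neighbouring cell. The released intracellular part joins the DNA-binding protein RBPJ and switches on targets, mainly the Hes and Hey families of transcriptional repressors. In bone and cartilage the pathway is known for restraining chondrocyte and osteoblast differentiation, and in vessels for the specification of arteries and of the mural cells (pericytes and smooth muscle) that wrap them.

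The plan of the analysis was to ask first which cell types of the growth plate hold each gene, then how the genes vary along the chondrocyte classes, and last whether pups of the 2 genotypes differed within a cell type. Levels are UMIs per 1000000 UMIs (CPM), from the UMIs summed over the cells of a class in each pup, given as the mean ± SD over pups, and levels are compared between cell classes for a gene and never between genes. Libraries held 117746735 to 183322632 UMIs and 13814 to 19133 cells after filtering, 82516 in all, with a median of 8521 and 9261 UMIs per cell in the WT pups and of 6000 to 7016 in the mutant pups. The RNA of the inactive X chromosome, Xist, was found in 89.6% and 88.3% of the cells of pups 3 and 4 and in at most 0.171% of the cells of pups 1, 2 and 5, so both pups with Xist in most cells were labelled mutant. Pairs of libraries shared 3 to 7 cell barcodes, and no shared barcode had identical counts. The cells fell into 48 clusters, which gave 18 named classes, and 12 clusters with 18718 cells (22.7%) stayed unnamed. The label of the samples is chondrocytes, and the 5 named chondrocyte classes held 34845 cells (42.2%). The unnamed clusters together held Col2a1 at 69111 CPM and Acan, the main proteoglycan of cartilage, at 4483 CPM, against 72640 and 7358 CPM in proliferating chondrocytes, so cells with cartilage genes also lie outside the named classes. Col2a1, the defining collagen of cartilage, stood at 108152 to 124745 CPM in the resting chondrocytes. Of the other markers of that class, Ucma (a pooled 6841 CPM) and Scrg1 (656 CPM) were highest there among the chondrocyte classes. Pthlh, Sfrp5, Cytl1, Matn1, Snorc, Sox9 and Acan were higher in another chondrocyte class. Cytl1, for example, stood at 247 CPM against 614 CPM in articular chondrocytes, and Matn1 at 5657 CPM against 6010 CPM in proliferating chondrocytes. The class called pericytes held 897 cells with the mural markers Rgs5 (5676 to 13679 CPM over the pups) and Abcc9 (308 to 891 CPM). The smooth muscle genes Acta2, Myh11 and Tagln stood in it at 2578 to 7671, 831 to 2289 and 1036 to 3226 CPM over the pups. The class was a single cluster in which pericytes and smooth muscle cells were not separated, so its name covers mural cells of both kinds. The endothelial class held 524 cells with Cdh5 at 1343 to 1850.9 CPM and Pecam1 at 2197 to 2646 CPM. No member was used as a marker of a class, but classes were built by clustering all cells on variable genes, so levels by class are given as a description with no test.

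The promoter of Hey2, a target, is shown because it holds letters that match the core of the RBPJ site, and that of Notch3, the receptor with the largest share of its UMIs in 1 class, for comparison. Both are RefSeq sequences on GRCm38.p6, written 5′ to 3′ on the minus strand from 250 bases upstream of the annotated start. Capitals mark the searched motif, TGGGAA, or its reverse complement TTCCCA, found on both strands. The Hey2 stretch lies at chr10:30842781-30843033 and the Notch3 stretch at chr17:32166891-32167140.
Hey2: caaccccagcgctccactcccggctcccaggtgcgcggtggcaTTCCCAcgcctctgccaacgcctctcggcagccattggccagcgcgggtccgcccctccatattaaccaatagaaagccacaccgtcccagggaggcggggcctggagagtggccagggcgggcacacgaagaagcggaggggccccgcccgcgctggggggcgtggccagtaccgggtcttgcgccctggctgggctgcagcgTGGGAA
Notch3: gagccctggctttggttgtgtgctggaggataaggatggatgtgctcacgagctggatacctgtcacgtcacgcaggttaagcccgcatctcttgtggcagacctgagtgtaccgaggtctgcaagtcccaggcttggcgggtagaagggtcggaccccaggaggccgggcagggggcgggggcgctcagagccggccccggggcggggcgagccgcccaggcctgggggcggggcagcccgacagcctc

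In windows from 250 bases before to 50 bases after the start, 300 bases long, 8397 of 32851 promoter windows (25.6%) held at least 1 match and 1245 (3.79%) held at least 2. Windows were found for 8 of the 10 genes, 9 windows in all, and not for Hes1 and Hey1. Only the Hey2 window among those 9 held a match, with 2 of them, whose first bases lie 207 and 3 bases upstream of the start. A match of letters is a description of the sequence and not a site shown to be bound.

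On GRCm38 with the GENCODE M21 annotation, the 4 receptors, 3 ligands and 3 targets lie as follows. Notch1 lies at chr2:26457903-26516663, Notch2 at chr3:98013527-98150361, Notch3 at chr17:32120820-32166852 and Notch4 at chr17:34564268-34588503. Jag1 lies at chr2:137081456-137116644, Dll1 at chr17:15367354-15376872 and Dll4 at chr2:119325784-119335962. Hes1 lies at chr16:30064384-30067796, Hey1 at chr3:8663359-8667256 and Hey2 at chr10:30832359-30842801.

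Notch3 was highest in mural cells, Notch4 and Notch1 in endothelium, and Notch2 was found in many classes. Notch3, the receptor of mural cells, reached 1362 and 1232 CPM in the pericytes of the WT pups and 1443, 1471 and 1765 CPM in those of the mutant pups, a mean of 1455 ± 197 CPM (SD, n = 5 pups). Skeletal muscle cells came next at 242 ± 109 CPM (n = 5), and no pup's muscle value reached any pup's pericyte value. The pericytes made up 1.09% of all cells and held 67.5% of all Notch3 UMIs. Thinned to 3000 UMIs per cell, 93.9% of pericytes had a Notch3 UMI (99.1% unthinned), against 0.883% of macrophages (1.87% unthinned). Macrophages were taken as the background for shares of cells, and the median depths were 7505 UMIs in pericytes, 7156 in endothelial cells and 7589 in macrophages. Thinning left out 16 pericytes, 26 endothelial cells and 33 macrophages with fewer UMIs. Notch3 was low in cartilage, at 0.851 ± 0.405 CPM in hypertrophic and 4.31 ± 1.05 CPM in resting chondrocytes (n = 5 each).

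Notch4 marked the endothelium, the cell type for which this receptor is best known. It stood at 73.4 and 64.7 CPM in the endothelial cells of the WT pups and at 83.9, 83.3 and 63.8 CPM in those of the mutant pups (73.8 ± 9.69 CPM, n = 5). The next class, the erythroid cells, had 5.04 CPM, and the chondrocyte classes 0.364 to 1.07 CPM. The erythroid class also held the endothelial markers Cdh5 at a pooled 115 CPM and Pecam1 at 162 CPM, against 1612 and 2449 CPM in the endothelial class, and the part of endothelial RNA or cells in its Notch4 and Dll4 was not tested. Endothelial cells are 0.635% of all cells and held 34.2% of all Notch4 UMIs. A Notch4 UMI was found in 20.1% of thinned endothelial cells and in 0.379% of thinned macrophages (38.2% and 1.36% unthinned).

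Notch1, the receptor shared by endothelium, muscle and many progenitors, was highest in the endothelial cells at 177 ± 23.7 CPM, with pups between 149 and 201 CPM. Skeletal muscle cells had 163 ± 29.1 CPM (n = 5) and Schwann cells 163 ± 71.9 CPM (n = 3), and the pups of these classes overlapped with those of the endothelium. Mast cells had 86.9 ± 2.92 CPM in the 2 pups with enough of them, and pericytes 81.7 ± 10.7 CPM. The articular chondrocytes, the cells of the future joint surface, held the highest level in cartilage at 46.9 ± 8.66 CPM.

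Notch2 was spread most evenly over the classes. Among the 15 classes with at least 10 cells in all 5 pups it was highest in the granulocytes (116 ± 37.2 CPM), the skeletal muscle cells (109 ± 22.2 CPM) and the macrophages (104 ± 14.0 CPM), whose pups overlapped. Among the same 15 classes it was lowest in the endothelial cells, at 17.1 ± 6.69 CPM. In the perichondrial cells, the fibrous sheath of the cartilage, it stood at 96.1 ± 9.21 CPM.

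**Figure D1:**
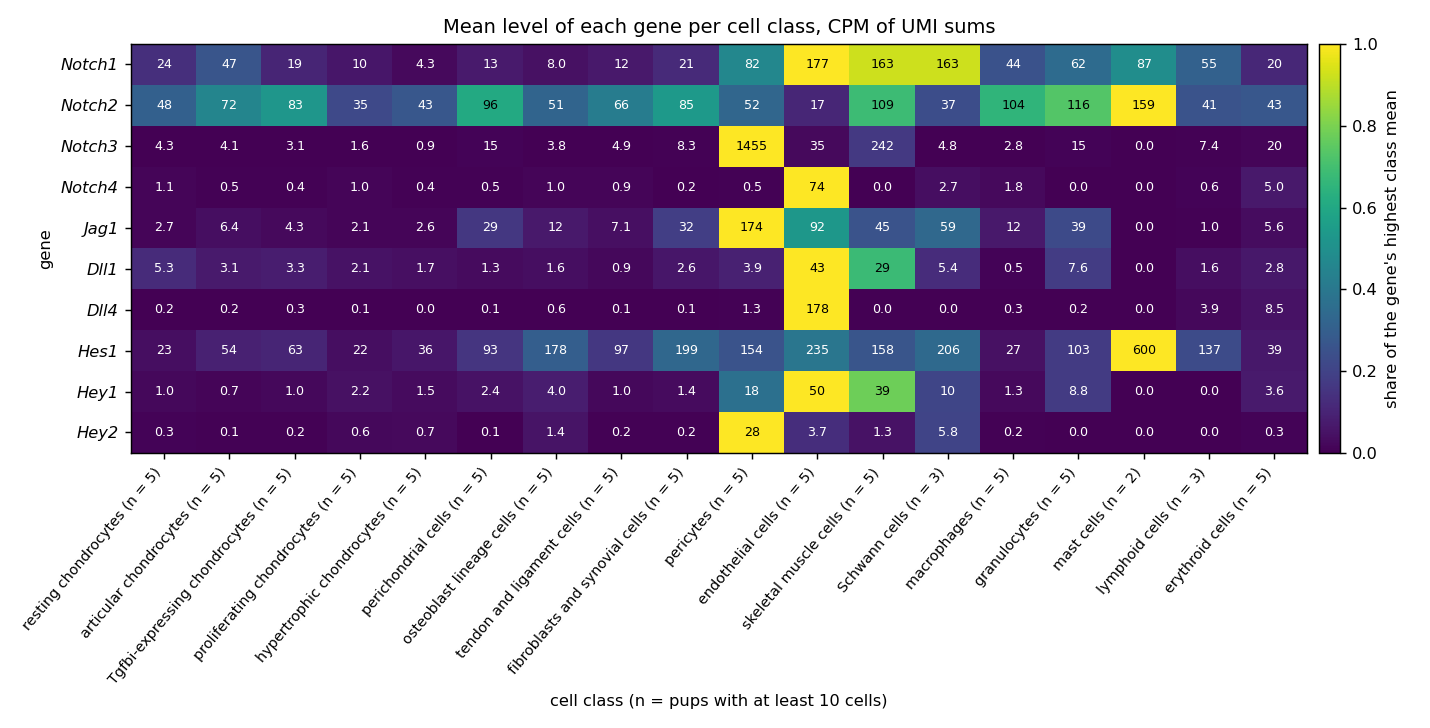
Mean level of each Notch gene (rows) in the 18 named cell classes (columns), in CPM of the summed UMIs, written in each cell, with n the pups that had at least 10 cells of the class. The colour is the share of the gene's own highest class mean, so colours compare classes within a row, and Notch3 peaks in pericytes at 1455 CPM and Dll4 in endothelial cells at 178 CPM.

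Among the classes present in all 5 pups, the mean of Jag1 was highest in the pericytes and those of Dll4 and Dll1 in the endothelial cells. The pericytes and endothelial cells held 18.6% and 5.37% of the Jag1 UMIs and 1.55% and 9.87% of the Dll1 UMIs. Most UMIs of these 2 ligands thus lay in other cells. Jag1, the Jagged ligand needed for mural cell maturation, was highest in the pericytes, with 170 and 241 CPM in the WT pups and 149, 112 and 198 CPM in the mutant pups (174 ± 49.0 CPM, n = 5). Endothelial cells had 92.2 ± 24.0 CPM, and the pups of both classes overlapped. Jag1 was found in 37.7% of thinned pericytes, 16.7% of thinned endothelial cells and 2.87% of thinned macrophages (61.5%, 28.4% and 6.37% unthinned). The 5 chondrocyte classes held 2.14 to 6.44 CPM and the perichondrial cells 28.5 CPM.

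Dll4, the Delta-like ligand of arterial and sprouting endothelium, was mostly endothelial. Its level was 163 and 108 CPM in the endothelial cells of the WT pups and 151, 199 and 269 CPM in those of the mutant pups (178 ± 60.5 CPM, n = 5). These cells held 81.6% of all Dll4 UMIs, and 30.4% of them had a Dll4 UMI after thinning against 0.0868% of macrophages (47.1% and 0.255% unthinned). The erythroid class came second at 8.53 CPM, and no Dll4 UMI was counted in the 412 skeletal muscle cells, which allows a level of up to 1.23 CPM.

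Dll1, the Delta-like ligand of muscle progenitors and somites, reached 42.6 ± 9.98 CPM in the endothelial cells and 29.0 ± 13.4 CPM in the skeletal muscle cells (n = 5 each), with overlapping pups. In cartilage it was highest in the resting chondrocytes, the reserve cells of the growth plate, at 5.30 ± 1.52 CPM.

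Among the targets, Hes1, a repressor that many signals besides Notch also induce, was the most widespread. The mast cells had 599.6 ± 238 CPM in the 2 pups with enough of them. Of the classes present in all 5 pups, the endothelial cells had 235 ± 123 CPM, the fibroblasts and synovial cells 199 ± 19.6 CPM, the osteoblast lineage cells 178 ± 39.8 CPM, the skeletal muscle cells 158 ± 51.1 CPM and the pericytes 154 ± 37.3 CPM. Genes of the response to tissue dissociation were a list of 19 that includes Fos and Jun. They took 3.75% of the UMIs of mast cells, 1.57% of those of endothelial cells and 1.86% of those of pericytes. In cartilage they took 2.39% in the chondrocytes with high Tgfbi and 2.18% in proliferating chondrocytes. The share was 1.65% in resting, 1.498% in hypertrophic and 1.12% in articular chondrocytes. Among these chondrocyte classes, the mean of Hes1 was highest in the class with high Tgfbi (62.5 CPM) and lowest in the proliferating class (21.8 CPM). The part of the dissociation response in the Hes1 levels was not tested.

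The high SD of Hes1 in the endothelium came from pup 5, in which 67 of 127 Hes1 UMIs (52.8%) were counted in a single cell. That cell belonged to a small endothelial cluster of 23 cells led by Prox1, the regulator of lymphatic endothelium. Without this cluster, Hes1 stood at 163, 119, 199, 202 and 179 CPM in pups 1 to 5, a mean of 172 ± 33.7 CPM. The 23 cells themselves had a pooled 747 CPM of Hes1, 119 CPM of Hey1 and 224 CPM of Notch1, and 12 of them came from pup 2. The single cell of pup 5 gave 67 of the 157 Hes1 UMIs behind the pooled value, and pup 2, the only pup with at least 10 of these cells, stood at 326 CPM of Hes1. No Notch4 UMI was counted in them, which allows up to 14.3 CPM, below the 78.0 ± 5.68 CPM of the other endothelial cells.

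Hey1, a target typical of endothelium and developing bone, was highest in the endothelial cells at 49.9 ± 6.52 CPM and next in the skeletal muscle cells at 38.8 ± 17.5 CPM, with overlapping pups. Pericytes had 18.4 ± 5.04 CPM and the chondrocyte classes 0.660 to 2.20 CPM. Hey2, a target of arterial smooth muscle and heart, was counted in 629 UMIs over all cells, of which 51.0% lay in the pericytes. Its pericyte level was 28.4 ± 22.3 CPM (n = 5), against 3.72 ± 2.97 CPM in the endothelial cells, and no pup overlapped between these 2 classes. After thinning, 10.2% of pericytes and 0.0957% of macrophages had a Hey2 UMI (22.6% and 0.170% unthinned).

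2 further targets, taken from the wider pathway list, had a like distribution. Heyl, the Hey family member of smooth muscle, stood at 84.7 CPM in the pericytes and 39.5 CPM in the skeletal muscle cells. Nrarp, a feedback inhibitor that Notch induces, stood at 161 CPM in the pericytes and 57.1 CPM in the endothelial cells, and the pericytes held 74.6% of its UMIs. In the chondrocyte classes Nrarp was at 0.0335 to 0.166 CPM.

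Within cartilage, the classes differed by gene rather than along a shared order. The classes were the resting, proliferating and hypertrophic chondrocytes of the growth plate, the articular chondrocytes, and a class with high Tgfbi. Notch1 stood at 46.9 ± 8.66 CPM in articular, 24.0 ± 3.93 CPM in resting, 18.6 ± 1.18 CPM in Tgfbi-expressing, 10.5 ± 4.22 CPM in proliferating and 4.26 ± 1.88 CPM in hypertrophic chondrocytes (n = 5 each). The step from articular to resting cells and that from Tgfbi-expressing to proliferating cells held in 5 of 5 pups with no overlap between pups. The pups of resting and Tgfbi-expressing cells overlapped, as did those of proliferating and hypertrophic cells, although the latter step held within each of the 5 pups. Along the column, the Notch1 means fell from resting to proliferating to hypertrophic cells.

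Notch2 was highest in the Tgfbi-expressing (83.1 ± 10.4 CPM) and articular chondrocytes (72.2 ± 6.16 CPM), whose pups overlapped. The resting (48.5 ± 3.66 CPM) and hypertrophic chondrocytes (43.1 ± 1.99 CPM) followed, again with overlap. The proliferating chondrocytes were lowest at 35.0 ± 1.00 CPM, below the hypertrophic cells in 5 of 5 pups with no overlap. The highest class mean of Notch2 was 2.38 times the lowest, against 11.02 times for Notch1.

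Hes1 shared with Notch2 its highest classes and its lowest, while the hypertrophic cells stood above the resting cells. It stood at 62.5 ± 19.6 CPM in the Tgfbi-expressing and 54.4 ± 6.23 CPM in the articular chondrocytes, with overlapping pups. The hypertrophic chondrocytes had 36.2 ± 7.83 CPM, below the articular and above the resting cells (22.5 ± 3.88 CPM) in 5 of 5 pups with no overlap in either step. The proliferating cells (21.8 ± 4.57 CPM) overlapped with the resting cells. The other 7 members had class means of at most 6.44 CPM in cartilage. For them every pair of neighbouring chondrocyte classes overlapped between pups.

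**Figure D2:**
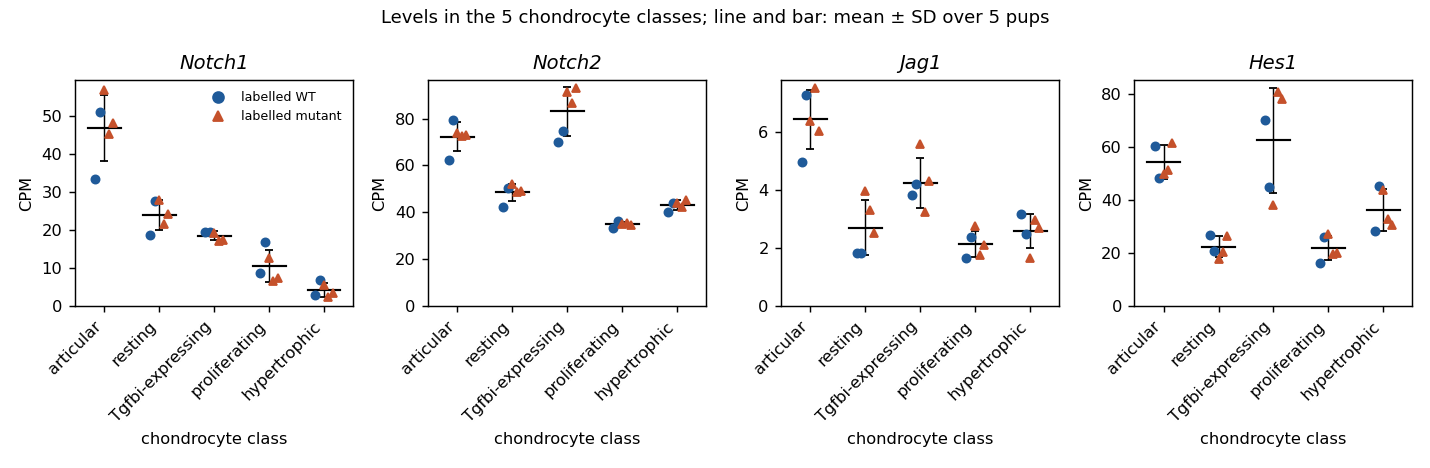
Levels of Notch1, Notch2, Jag1 and Hes1 in CPM (vertical axes) in the 5 chondrocyte classes (horizontal axes), with a point per pup (circles WT, triangles mutant) and the mean ± SD over the 5 pups. Notch1 falls from 46.9 CPM in articular to 4.26 CPM in hypertrophic chondrocytes, while Hes1 is higher in hypertrophic (36.2 CPM) than in resting chondrocytes (22.5 CPM).

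The vascular classes were next divided by whether a cell held a UMI of a ligand. A cell with more UMIs is more likely to hold one of any gene, so the values below are CPM, and the split is described with no test. Endothelial cells with a Dll4 UMI numbered 247 (median 7993 UMIs) and those without 277 (median 6585 UMIs). Hey1 stood at 82.3, 75.4, 72.5, 116 and 68.5 CPM in the Dll4-holding cells of pups 1 to 5 and at 14.1, 14.4, 18.6, 9.57 and 12.9 CPM in the other endothelial cells. The Hey1 values of both parts did not overlap, and the pooled levels were 80.4 and 14.9 CPM. Notch1 (215 against 139 CPM pooled), Jag1 (142 against 51.7 CPM) and Notch4 (98.4 against 50.9 CPM) were higher with Dll4 in pups 1 to 4 and lower in pup 5, which had 37 endothelial cells. Hes1 (246 against 143 CPM pooled) and Nrarp (64.6 against 40.3 CPM) were higher with Dll4 in pups 2 to 5 and lower in pup 1. The Dll4-holding cells of pup 5, at 587 CPM of Hes1, include the single cell with 67 Hes1 UMIs described above. Dll1 (45.7 against 40.8 CPM) was higher with Dll4 in 2 of the 5 pups.

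The 552 pericytes with a Jag1 UMI (median 8290 UMIs) were set against the 345 without (median 6622 UMIs). Hey2 stood at 47.8, 68.8, 26.9, 16.5 and 12.04 CPM with Jag1 and at 25.8, 35.5, 7.90, 5.04 and 8.58 CPM without, higher within each of the 5 pups. In pups 4 and 5 the Hey2 values rest on only 8 and 3 UMIs over both parts, so their difference is imprecise. Nrarp stood at 202, 245, 189, 113 and 205 CPM with Jag1 and at 88.1, 132, 73.4, 95.8 and 137 CPM without, again higher in 5 of 5 pups. The other 3 targets were not higher with Jag1 in every pup. Hes1 stood at 99.03, 191, 156, 102 and 211 CPM with Jag1 and at 137, 210, 134, 149 and 163 CPM without, lower with Jag1 in 3 of 5 pups. Heyl stood at 97.9, 111, 112, 77.0 and 54.2 CPM with Jag1 and at 107, 115, 76.8, 37.8 and 60.1 CPM without, also lower in 3 of 5 pups. Hey1 stood at a pooled 19.93 CPM with Jag1 and 20.02 CPM without. Notch3 stood at a pooled 1337 CPM with Jag1 and 1378 CPM without, and was higher with Jag1 in 4 of the 5 pups.

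**Figure D3:**
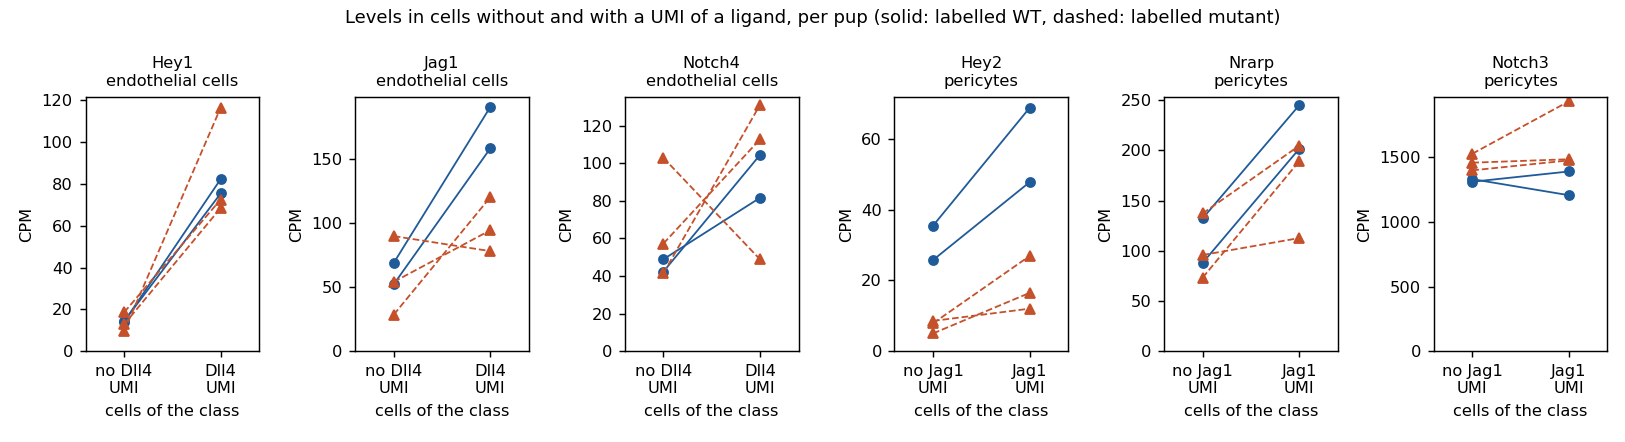
Levels in CPM (vertical axes) in cells without and with a UMI of Dll4 (endothelial cells, 3 panels) or Jag1 (pericytes, 3 panels), with a line per pup (solid WT, dashed mutant). With the ligand, Hey1 is higher in all 5 pups (pooled 80.4 against 14.9 CPM) and so is Hey2 (50.8 against 18.5 CPM), while pooled Notch3 is 1337 against 1378 CPM. The Hey2 values of pups 4 and 5 rest on 8 and 3 UMIs over both parts. Of the targets not plotted, Hes1 is lower with Dll4 in pup 1, and in pericytes Hes1 and Heyl are lower with Jag1 in 3 of 5 pups.

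The genes whose levels over the 18 classes were most like those of a member were found by Pearson's r of log2(CPM + 5), as a description over classes that share the same libraries. For Notch4 they were Nova2 (r = 0.988), Stap2 and Fam167b, and for Dll4 they were Podxl (r = 0.988), Ushbp1 and Flt4, all with their highest level in endothelial cells. For Notch3 they were Sh3bgr (r = 0.939), the smooth muscle actin Acta2 (r = 0.938) and Cygb, and for Hey2 Adra2a (r = 0.967), Gucy1b1 and Il34, all highest in pericytes. The gene most like Dll1 was another member, Hey1 (r = 0.889), and the second most like Hey1, after Pgm5 (r = 0.923), was Dll1. The nearest were Agtpbp1 for Jag1 (r = 0.925), Fyn for Hes1 (r = 0.856) and Ern1 for Notch2 (r = 0.775).

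The last question was whether the mutant allele changed the pathway within a cell type. Summed counts of 2 WT and 3 mutant pups were compared in 8 classes with edgeR's quasi-likelihood test, with Benjamini-Hochberg adjustment over all genes tested and a threshold of 0.05. The proliferating chondrocytes here include the Tgfbi-expressing cells. Each pup is a separate animal and library of the same litter. Sex, as read from Xist and Ddx3y, was partly confounded with the label, so effects of sex and genotype cannot be fully told apart. No member was called in any class, in 62 tests of a member in a class, of which 8 had an unadjusted p under 0.05. Over all genes, 0 were called (0% of those tested) in 7 of the classes and 3 (0.0333%) in the endothelial cells. The unadjusted p was under 0.05 for 892 genes (5.93% of those tested) in resting, 744 (5.39%) in articular, 675 (4.41%) in proliferating and 392 (2.96%) in hypertrophic chondrocytes. It was under 0.05 for 1142 (8.76%) in perichondrial cells, 548 (3.77%) in tendon and ligament cells, 699 (7.25%) in pericytes and 428 (4.75%) in endothelial cells. The 8 member tests were 4 of Jag1, in resting chondrocytes, perichondrial cells, pericytes and endothelial cells, that of Notch4 in resting and of Notch3 in articular chondrocytes, and those of Hey2 in pericytes and Dll4 in endothelial cells. DESeq2 called 22, 7, 2, 0, 66, 2, 15 and 2 genes in the same order of classes, none of them a member.

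In 9 of the 62 tests the CPM of the WT pups and of the mutant pups did not overlap. The resting chondrocytes gave 4 of 8 members tested, against 22.8% of all genes tested there. The perichondrial cells gave 1 of 7 (28.4% of all genes), the pericytes 2 of 7 (23.4%) and the endothelial cells 2 of 9 (20.3%). None of the 7 members tested in articular chondrocytes (17.8% of all genes), 9 in proliferating chondrocytes (21.2%), 7 in hypertrophic chondrocytes (18.6%) and 8 in tendon and ligament cells (22.7%) was separated. The 4 in the resting chondrocytes were all low. Jag1 stood at 1.84 and 1.82 CPM in the WT pups and at 3.98, 3.33 and 2.53 CPM in the mutant pups, and Dll1 at 4.90 and 7.99 CPM against 4.47, 4.42 and 4.74 CPM. Notch3 and Notch4 were likewise separated there, with means of 4.31 and 1.07 CPM. Of 9 marker lists of cell types, 2 also separated the genotypes in these cells. The 9 hypertrophic markers, of which Phospho1 was at 0, summed to 212 and 201 CPM in the WT pups and to 183, 163 and 174 CPM in the mutant pups. The largest of them was Mef2c, at a pooled 98.2 CPM, while Col10a1 stood at 9.88 CPM. The 7 erythroid markers, all detected, summed to 30.0 and 60.2 CPM against 15.0, 9.78 and 11.2 CPM. The part of these markers in the values of the 4 members was not tested.

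The median log2 fold change of the members, mutant over WT, was -0.07 in resting, 0.09 in articular, -0.19 in proliferating and -0.27 in hypertrophic chondrocytes. It was 0.21 in perichondrial cells, 0.20 in tendon and ligament cells, -0.00199 in pericytes and 0.23 in endothelial cells. The median over all genes lay between -0.02 and 0.00 in these classes. The 3 negative chondrocyte medians of the members changed sign with the processing. At Leiden resolution 0.8 they were 0.16 in resting and 0.20 in proliferating chondrocytes. Without an upper limit on genes per cell they were 0.15 in both proliferating and hypertrophic chondrocytes, and -0.27 in resting chondrocytes. Positive medians changed sign as well. Without both mutant pups with Xist the median was -0.13 in endothelial cells and -0.03 in tendon and ligament cells. Without the filter on low counts it was -0.02 in articular chondrocytes. The perichondrial median stayed positive in every alternative.

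**Figure D4:**
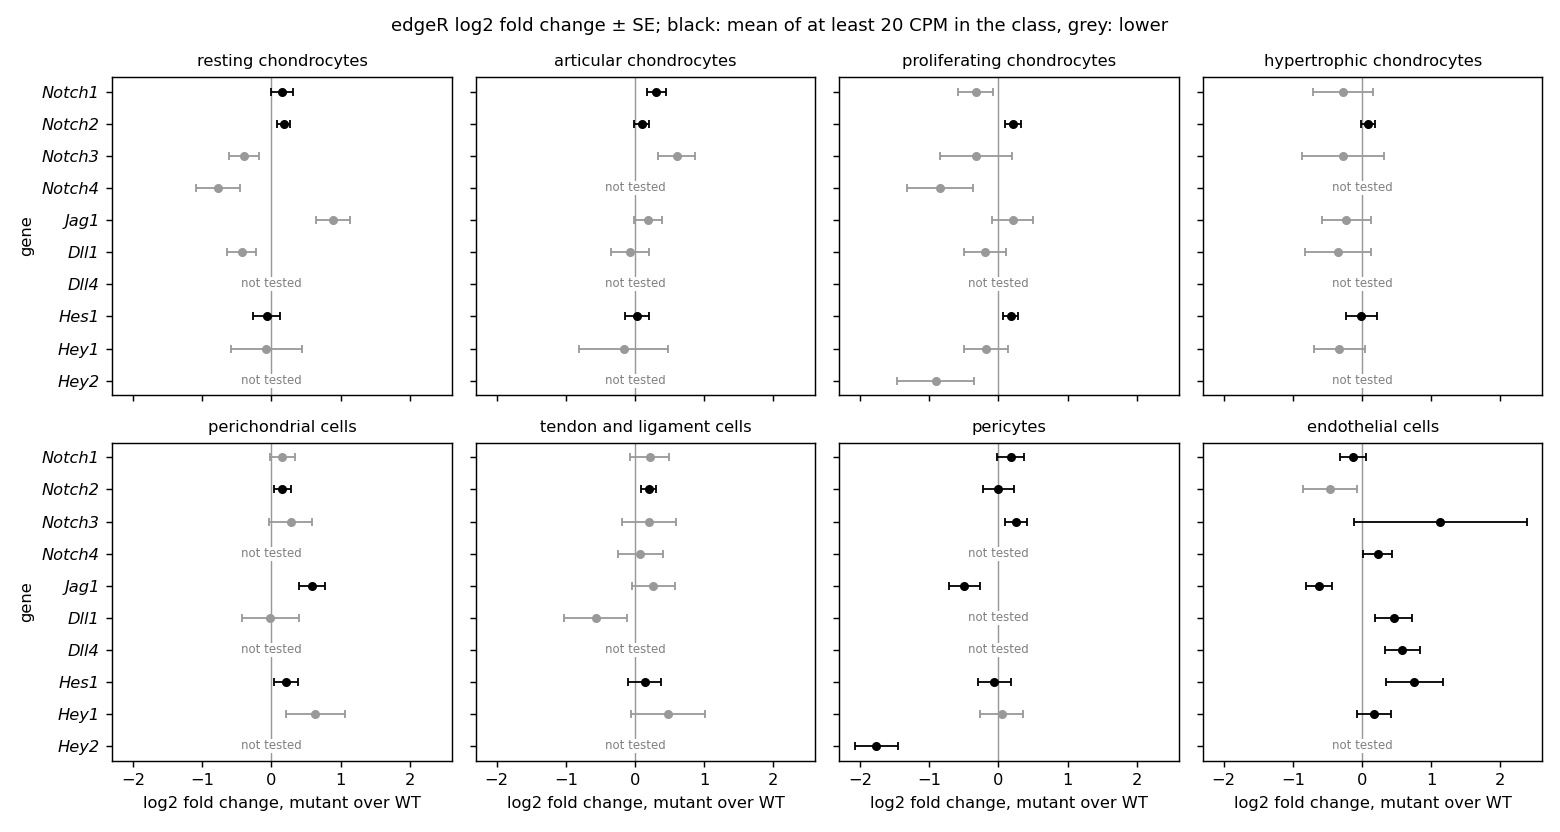
edgeR log2 fold change of each member, mutant over WT (horizontal axes), in the 8 classes tested. Bars are ± an approximate SE derived from the F statistic of the test. Members of at least 20 CPM are in black and lower members in grey. No member passed the test, and among the black points Hey2 in pericytes lies farthest from no change, at -1.77.

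In the pericytes, Hey2 was lower in the mutant pups but did not pass the test. It stood at 40.0 and 61.8 CPM in the WT pups and at 18.8, 10.5 and 10.6 CPM in the mutant pups. The log2 fold change was -1.77 ± 0.31 (SE), with an unadjusted p of 9.61e-05 and an adjusted p of 0.228 by edgeR. The values rest on 53 and 218 Hey2 UMIs in the WT pups and on 39, 8 and 3 in the mutant pups, from 126, 353, 260, 119 and 39 pericytes. Without WT replicate 1 the adjusted p was 0.0186, with a log2 fold change of -2.02, and without the filter on low counts it was 1.53e-06. Without WT replicate 2 the adjusted p was 0.624, with a log2 fold change of -1.37, and without mutant replicate 2 it was 0.844, with -1.61.

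Markers of mural cells separated the same pups within the pericyte class, in both directions. Of the 10 pericyte markers, 5 were higher in every mutant pup than in every WT pup, 3 were lower, and Myh11 and Mcam overlapped, against 23.4% of all genes tested that did not overlap in either direction. The lower ones were Acta2, the actin of contractile mural cells, at 5021 and 7671 CPM in the WT pups and 4838, 2578 and 2865 CPM in the mutant pups, Tagln, another contractile smooth muscle gene, at 2068 and 3226 CPM against 1774, 1055 and 1036 CPM, and Cspg4, a pericyte proteoglycan, at 342 and 312 CPM against 267, 241 and 283 CPM. Myh11, a myosin of mature smooth muscle, stood at 1397, 2289, 1398, 855 and 831 CPM in pups 1 to 5. The higher ones were the capillary pericyte gene Rgs5, at 8657 and 5676 CPM in the WT pups and 8880, 10370 and 13679 CPM in the mutant pups, Abcc9, at 451 and 308 CPM against 557, 777 and 891 CPM, and Kcnj8, Pdgfrb and Higd1b. Kcnj8 stood at 83.1 and 75.5 CPM against 108, 120 and 113 CPM, Pdgfrb at 190 and 146 CPM against 201, 218 and 283 CPM, and Higd1b at 26.4 and 13.9 CPM against 38.1, 27.6 and 60.1 CPM. The sum of the 10, in which the higher and lower markers offset each other, overlapped, at 18599 and 20099.5 CPM against 18436, 16659 and 20488 CPM. The 10 endothelial markers, all detected, summed to 291 to 309 CPM in the pericytes of the WT pups and to 377 to 601 CPM in those of the mutant pups. Most of this sum was Esam, at a pooled 270 CPM, while Cdh5 and Pecam1 stood at 3.26 and 7.53 CPM. The 9 hypertrophic markers, of which Phospho1 was at 0, summed to 870 and 698 CPM in the WT pups and to 565, 497 and 654 CPM in the mutant pups. Most of that sum was Mef2c, at a pooled 542 CPM, while Col10a1 stood at 56.5 CPM. The 9 macrophage markers summed to 4.53 and 66.1 CPM in the WT pups and to 0.964, 2.63 and 0 CPM in the mutant pups. The part of these markers in the Hey2 values was not tested. Pup 5, the mutant pup without Xist, stood at 10.6 CPM of Hey2 on 3 UMIs, too few to compare it with pups 3 and 4. The part of sex in the Hey2 values was not tested. DESeq2 gave no adjusted p for Hey2 in this class.

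Notch3 in the pericytes was separated by a smaller step, from 1362 and 1232 CPM to 1443, 1471 and 1765 CPM. Its log2 fold change was 0.25 ± 0.15 (SE), with an adjusted p of 0.810 by edgeR. Jag1 in the same cells overlapped between the genotypes, at 170 and 241 CPM against 149, 112 and 198 CPM (log2 fold change -0.49, unadjusted p 0.0484 and adjusted p 0.680 by edgeR). The other 2 member targets overlapped there as well, Hes1 at 113 and 195 CPM against 147, 126 and 191 CPM and Hey1 at 16.6 and 20.99 CPM against 20.2, 23.7 and 10.6 CPM. Heyl, a target outside the 10 genes, did separate the pups and was lower in the mutant pups, with its values given below among the pathway genes.

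In the endothelial cells, Jag1 was at 106 and 128 CPM in the WT pups and at 72.8, 73.1 and 81.5 CPM in the mutant pups. The log2 fold change was -0.62 ± 0.19 (SE), with an unadjusted p of 0.00409 and an adjusted p of 0.729 by edgeR. Hes1 was at 189 and 138 CPM in the WT pups and at 198, 202 and 450 CPM in the mutant pups. Its log2 fold change was 0.76 ± 0.41 (SE), with an adjusted p of 1.00 by edgeR. Most of the Hes1 value of pup 5 is the single Prox1-cluster cell described above, and without that cluster the pups stood at 163 and 119 CPM against 199, 202 and 179 CPM, still without overlap. Without the cells called as doublets the genotypes overlapped, at 203 and 134 CPM against 198, 185 and 450 CPM. Dll4 overlapped between the genotypes, at 163 and 108 CPM against 151, 199 and 269 CPM. Its log2 fold change was 0.58 ± 0.25 (SE), with an unadjusted p of 0.0364 and an adjusted p of 0.998 by edgeR. Notch1, Notch4 and Hey1 overlapped as well.

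Notch3 in the endothelial cells spread from no UMI in pup 5, which allows up to 10.6 CPM, to 91.8 CPM in pup 4, where 35 of 54 UMIs lay in a single cell. The 10 pericyte markers, all detected, summed there to 398, 737, 943, 1069 and 411 CPM in pups 1 to 5. Without cells called as doublets, 12.8% of the class, mean Notch3 was 33.5 CPM against 34.9 CPM with them.

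In the perichondrial cells, Jag1 was at 18.2 and 26.3 CPM in the WT pups and at 28.3, 30.3 and 39.3 CPM in the mutant pups. The log2 fold change was 0.59 ± 0.19 (SE), with an unadjusted p of 0.0139 and an adjusted p of 0.516 by edgeR. Over 13 alternatives the log2 fold change ran from 0.26 (adjusted p 0.909 by edgeR), with another seed of the clustering, to 0.86, and it was 0.39 without WT replicate 1. The adjusted p passed the threshold in 1 of them, at 0.00437 without the filter on low counts. The 9 hypertrophic markers, of which Phospho1 was at 0, summed to 431 and 445 CPM in the perichondrial cells of the WT pups and to 693, 605 and 989 CPM in those of the mutant pups. Among them Alpl, Mmp13, Spp1 and Mef2c stood at a pooled 205, 132, 116 and 84.0 CPM, and Col10a1 at 14.2 CPM. Alpl and Spp1 are also on the list of osteoblast lineage markers. The 7 erythroid markers, all detected, summed to 70.4 CPM in both WT pups and to 41.5, 12.8 and 60.9 CPM in the mutant pups. The part of these markers in the Jag1 values was not tested. The other 6 members tested overlapped there between the genotypes.

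**Figure D5:**
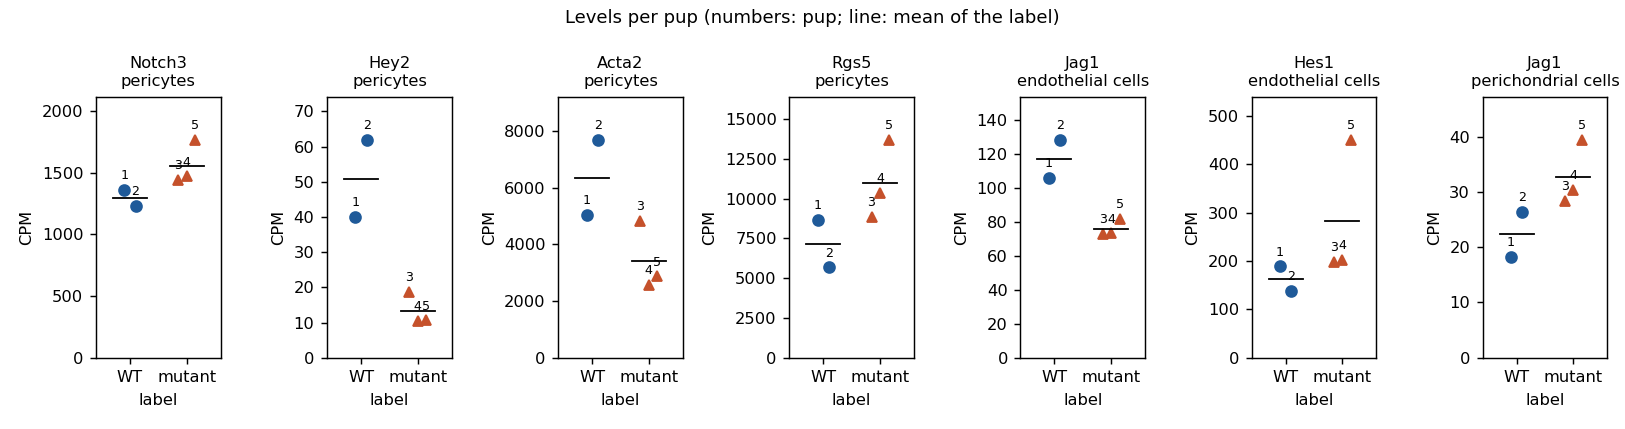
Levels per pup in CPM (vertical axes) for the members whose pups separated by label with at least 20 CPM, and for the pericyte genes Acta2 and Rgs5, with circles for WT and triangles for mutant pups, pup numbers above them and a line at each mean. Hey2 in pericytes lies at 40.0 and 61.8 CPM in WT and at 10.5 to 18.8 CPM in mutant pups, and Hes1 in endothelial cells is raised by pup 5 at 450 CPM.

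Whether the effect of genotype differed between the perichondrial cells and the resting chondrocytes was tested in a single edgeR model with the pup as a block. Of 15535 genes 3 were called (0.0193%), 806 had an unadjusted p under 0.05, and none of the 8 members tested was called. Notch3 was the member with an unadjusted p under 0.05 (0.0157), and its adjusted p was 0.850.

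The wider pathway list held 56 genes, namely other ligands, glycosyltransferases and ubiquitin ligases that modify ligand and receptor, the proteases that cut the receptor, the nuclear complex and its repressors, inhibitors and further targets. None was called in either direction in 367 tests over the 8 classes, of which 21 had an unadjusted p under 0.05. Leaving out WT replicate 2, Numbl, an inhibitor of Notch receptors, was called in 5 classes, namely the resting, articular, proliferating and hypertrophic chondrocytes and the perichondrial cells, and without the filter on low counts the noncanonical ligand Dlk1 was called in endothelial cells. The pericytes gave 7 of the 21, from 42 genes tested, where 7.25% of all genes tested had such a p. Psen2, a catalytic subunit of the γ-secretase that releases the intracellular part, was at 23.4 and 23.0 CPM in the pericytes of the WT pups and at 42.9, 44.7 and 46.0 CPM in those of the mutant pups (log2 fold change 0.92, adjusted p 0.309 by edgeR). Ncstn, another γ-secretase subunit, was at 124 and 118 CPM against 153, 178 and 191 CPM (0.50, adjusted p 0.517 by edgeR). Heyl was at 101 and 112 CPM against 96.9, 56.6 and 56.6 CPM, without overlap (-0.51, adjusted p 0.680 by edgeR), and Nrarp overlapped between the genotypes. The pups of both genotypes did not overlap for 12 of those 42 genes, against 23.4% of all genes in the pericytes, and for 11 of 48 in the resting chondrocytes, against 22.8%. Furin, the protease that cuts Notch receptors on their way to the surface, had an unadjusted p under 0.05 in 3 classes, and in the perichondrial cells it stood at 63.8 and 57.7 CPM in the WT pups and at 75.8, 78.2 and 79.5 CPM in the mutant pups (0.42, adjusted p 0.410 by edgeR). Psen2, Ncstn and Furin were named for their low p after the values were seen.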

How the data were processed

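Dissociated femoral and tibial growth plate cells of 5 pups were captured with BD Rhapsody HT Express, and the authors made the gene-by-cell tables with the cloud pipeline named in their methods, which assigned barcodes and quantified transcripts. Per the labels the build is mm10. The deposited values are raw UMI counts per gene and cell, 1 library per pup. Cells with under 200 or over 6000 genes or over 10% mitochondrial UMIs were left out, as in the study. The rest were clustered on Pearson residuals (3000 genes, 50 components, 20 neighbours, Leiden resolution 1.5). Neighbours came from scikit-learn 1.9.0 and clusters from leidenalg 0.10.2, in Python 3.11.15. Clusters were named by fixed markers, with no member among them. A cluster took the name with the highest mean marker score, of at least 0.5. Names with scores within 0.07 of the highest were decided by the number of their markers among the 10 leading genes. The cluster stayed unnamed if those numbers tied or if another name had more of them. At least 3 markers had to be detected. The limits of 0.07 and of 3 markers were set after the data were seen. Scrublet, run through scanpy 1.11.5, called 2.71% to 3.59% of cells per pup as doublets at a score limit of 0.3. Its own threshold called 0.00724% in pup 5. These cells were kept, except in an alternative. Endothelial cells (12.8%) and pericytes (8.92%) had high shares.

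UMI counts were summed per pup and class. Levels are CPM over pups with at least 10 cells. Genotypes were compared with edgeR 4.0.16 in R 4.3.3 (TMM, filterByExpr, glmQLFit with robust estimation, glmQLFTest) and in alternatives with DESeq2 1.42.0, after the script was tested on simulated data. Fold changes are printed for members whose pups did not overlap between genotypes with a mean of at least 20 CPM and, added after their values were seen, for Jag1 in pericytes and Dll4 in endothelial cells, whose pups overlapped, and for some pathway genes. The SE given with an edgeR log2 fold change was derived from its test and is approximate. It is the absolute log2 fold change divided by the square root of the F statistic. Shares of cells were computed after thinning to 3000 UMIs, which left shallower cells out. Limits from a count of 0 use 3 counts and cover counting error only. The members, the pathway list and the other lists were chosen with earlier results of these data known. The genes most like Notch1 are not reported here.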

Additional observations from a re-analysis of the deposited data

How the results depend on the processing

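No paired analysis was possible because the replicate numbers were given in accession order and pair no pups across the genotypes. The 46 alternatives for the level of a member in its highest class moved it by less than 1 SD of the main result. That limit was wide for Hes1 in endothelial cells (235 ± 123 CPM, and 172 CPM without the Prox1-led cluster) and for Hey2 in pericytes (28.4 ± 22.3 CPM). For log2 fold changes, 65 alternatives cover the separated members of at least 20 CPM. They do not cover Jag1 in pericytes, Dll4 in endothelial cells or the pathway genes. The separated members were chosen because their pups did not overlap, so leaving out a pup could hardly reverse a direction. In pericytes, Leiden resolution 0.8 and another seed gave the same gene counts as the main result. In endothelial cells, resolution 0.8 and no upper limit on genes per cell did so too. With these limits, all 65 alternatives kept their direction. Of these, 3 passed the threshold, as given in the report for Hey2 in pericytes and Jag1 in perichondrial cells. Over 13 alternatives each, the log2 fold change ranged from -2.37 to -1.37 for Hey2 and from 0.19 to 0.38 for Notch3 in pericytes, from 0.26 to 0.86 for Jag1 in perichondrial cells, and from 0.33 to 1.45 for Hes1 and -0.88 to -0.49 for Jag1 in endothelial cells. The adjusted p ranged from 1.53e-06 to 0.844, from 0.499508 to 1.00, from 0.00437 to 0.928, from 0.130 to 1.00 and from 0.303 to 1.00 in the same order. In 101 of 104 alternatives of a class no member was called, and in 3 a single member was. Counts of all genes called moved more, and the cause was not tested. DESeq2 called 22 in resting, 7 in articular and 2 in proliferating chondrocytes, 66 in perichondrial cells, 2 in tendon and ligament cells and 15 in pericytes. Without the filter on low counts there were 35 in resting, 41 in articular and 23 in hypertrophic chondrocytes, 313 in perichondrial cells, 186 in pericytes and 47 in endothelial cells. Without both mutant pups with Xist (replicates 1 and 2) there were 28 in proliferating chondrocytes, 17 in perichondrial cells, 4 in pericytes and 0 in endothelial cells, and without an upper limit on genes per cell there was 1 in perichondrial cells. Leaving out single pups gave 0 to 9 genes in resting, 0 to 6 in articular, 0 to 5 in proliferating and 0 to 5 in hypertrophic chondrocytes, 0 to 8 in perichondrial cells, 0 to 5 in tendon and ligament cells, 0 to 42 in pericytes, 0 to 16 in endothelial cells and 2 to 5 for the difference between perichondrial and resting cells. Without WT replicate 1 there were 4 in resting and 1 in hypertrophic chondrocytes, 42 in pericytes and 15 in endothelial cells. Without WT replicate 2 there were 9, 6, 5 and 4 in resting, articular, proliferating and hypertrophic chondrocytes and 8, 1, 10 and 16 in perichondrial, tendon and ligament cells, pericytes and endothelial cells. Without mutant replicate 3 there were 6, 5, 5, 5, 7, 5, 7 and 5 in the same order. Without mutant replicate 1 there were 6 in pericytes, 0 in endothelial cells and 5 for the difference, and without mutant replicate 2 there were 0 in endothelial cells. Where a genotype was left with a lone pup, that pup is assumed to vary like the others. Thinning changed 17 of 20 shares of cells with a UMI by more than their spread, such as Dll4 in endothelial cells from 47.1% unthinned to 30.4% at 3000 and 23.4% at 2000 UMIs. The pericyte Hey2 values rest on 3 to 218 UMIs per pup, which limits their precision.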

Other observations

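Of the 12 clusters that no marker list named, the 2 with the most Notch3 are described here, and the next had 8.69 CPM. A cluster of 854 cells led by Abca8a, Mfap5 and Aldh1a2 had 93.5, 102, 110, 105 and 77.8 CPM of Notch3 in pups 1 to 5. It also held a pooled 96.2 CPM of Jag1, 148 CPM of Hes1, 31.7 CPM of Heyl and 14.0 CPM of Hey1. Its Notch2 was 98.5 CPM and its Nrarp 0.692 CPM. The cells thus carried a receptor, a ligand and Heyl at levels above those of cartilage with little Nrarp, a gene that stood at 161 CPM in the pericytes.

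A cluster of 76 cells led by the matrix proteases Mmp9 and Mmp13 and by Spp1, a phosphoprotein of bone matrix, had 117, 107, 134, 138 and 89.6 CPM of Notch3 in pups 1 to 5. Its pooled Notch1 was 119 CPM and its Notch2 92.4 CPM. Hey1 stood at 48.3, 94.97, 124, 116 and 57.9 CPM and Heyl at 69.0, 83.1, 82.7, 50.9 and 68.5 CPM. The pups of this cluster overlapped in Hey1 with those of the endothelial cells, the highest of the named classes, which had 43.9 to 59.5 CPM. Nrarp was at 5.37 CPM and Jag1 at 40.8 CPM. These values are a description of clusters built from the same cells and were not tested.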
